A study of Mus musculus with 81 samples.

Results

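The p53 family and 3 of its regulators were followed as RNA levels in mouse thymus and thymic lymphoma. The 6 genes were Trp53, Trp63, Trp73, Mdm4, Ppm1d and Usp7, taken by symbol from a table of 51826 genes, and all 6 were found there. Each of them passed the filter on low counts in the comparisons with normal thymus, while Trp73 did not pass it among the lymphomas alone.

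Trp53 encodes p53, the transcription factor that stops the cell cycle or starts apoptosis after DNA damage and whose loss in mice is best known for thymic lymphoma. Trp63 and Trp73 encode its relatives p63 and p73. In the thymus p63 is known as a factor of epithelial stem cells rather than of thymocytes. Among the regulators, Mdm4 binds and inhibits p53 together with Mdm2, Ppm1d (Wip1) is the phosphatase that switches off the DNA damage kinases and p53, and Usp7 (HAUSP) removes ubiquitin from both Mdm2 and p53.

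RNA sequencing libraries numbered 81 and came from 40 mice of a C57BL/6 x 129S4Sv/Jae background. All mice carried Plk4(Col1a1), rtTA(Rosa) and centrin-GFP(Rosa), that is, a doxycycline-inducible copy of Plk4, the kinase that starts centriole duplication, with its transactivator and a centriole reporter. Controls were 8 untreated p53+/+ mice with normal thymus, and 1 more untreated normal thymus was p53+/- (mouse 819). Lymphomas came from 10 untreated p53-/- mice (23 libraries), 9 doxycycline-treated p53-/- mice (18 libraries) and 12 doxycycline-treated p53+/- mice (31 libraries). Treatment lasted 2 weeks from the age of 30 days, and the ages at which tissue was taken are not in the labels. The labels do not name the p53 allele, and they do not tell whether the remaining copy was kept in the p53+/- tumours. Untreated p53+/- lymphomas were not analysed here, so that genotype and treatment cannot be told apart where the treated p53+/- group is set against untreated p53-/- lymphomas. The study's stated subject was the effect of aneuploidy on tumour development.

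The mouse was the unit of replication. Biopsies of a tumour were summed, and levels are given as CPM, the counts of a gene brought to the same total in each mouse, with TMM factors, which correct for differences in library composition. Library totals ran from 1.03 to 26.87 M counts with a median of 15.03 M, and the sums per mouse from 5.01 to 98.59 M. 2 mice stood apart by T and B lineage markers. Normal thymus 387 had 1190 CPM summed over 10 T lineage markers against a median of 6720 CPM over the 8 normal thymuses, together with the highest B lineage sum (1370 CPM) and the highest fat sum (9100 CPM) of that group. Untreated lymphoma 881 had 201 CPM of T lineage and 3430 CPM of B lineage markers, against group medians of 3600 and 14.3 CPM. In the other 30 lymphomas the T lineage sum lay at or above 1700 CPM. Among other lists, lymphoma 266 had the highest fibroblast sum (2500 CPM against a median of 352 CPM) and myeloid sum (1440 against 563 CPM) of its group, and the untreated lymphoma 98 had 395 CPM of B lineage markers. Sex genes went against the label in 3 mice, and the labels give no sequencing batch.

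In each comparison with normal thymus the members that passed the test were lower in the lymphomas. Trp53, the gene the genotypes alter, is among them, and for it genotype and tumour cannot be told apart. With edgeR's quasi-likelihood test and Benjamini-Hochberg adjustment over all 17843 genes tested, 4 of the 6 members fell in untreated p53-/- lymphomas, where 40.7% of all genes were called and 17.5% were called lower. In treated p53-/- lymphomas 5 of 6 fell, where 52.1% of all genes were called and 26.7% lower. That count depended on single animals: without mouse 266, 387, 643 or 857, 3 members fell, with the calls of Mdm4 and Ppm1d lost. In treated p53+/- lymphomas 4 of 6 fell, where 50.9% were called and 25.3% lower. No member rose in any of these comparisons. Trp73 is counted in each, though it passed the low-count filter largely through the normal thymuses, so its direction was close to fixed. The median log2 fold change over the 6 members was -0.81, -0.89 and -0.91 in that order of groups, beside 0.08, -0.04 and 0.0 over all genes tested. These 3 comparisons share their normal thymuses, so they are not independent of each other. The members and lists had been chosen with earlier results of these libraries known.

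**Figure D1:**
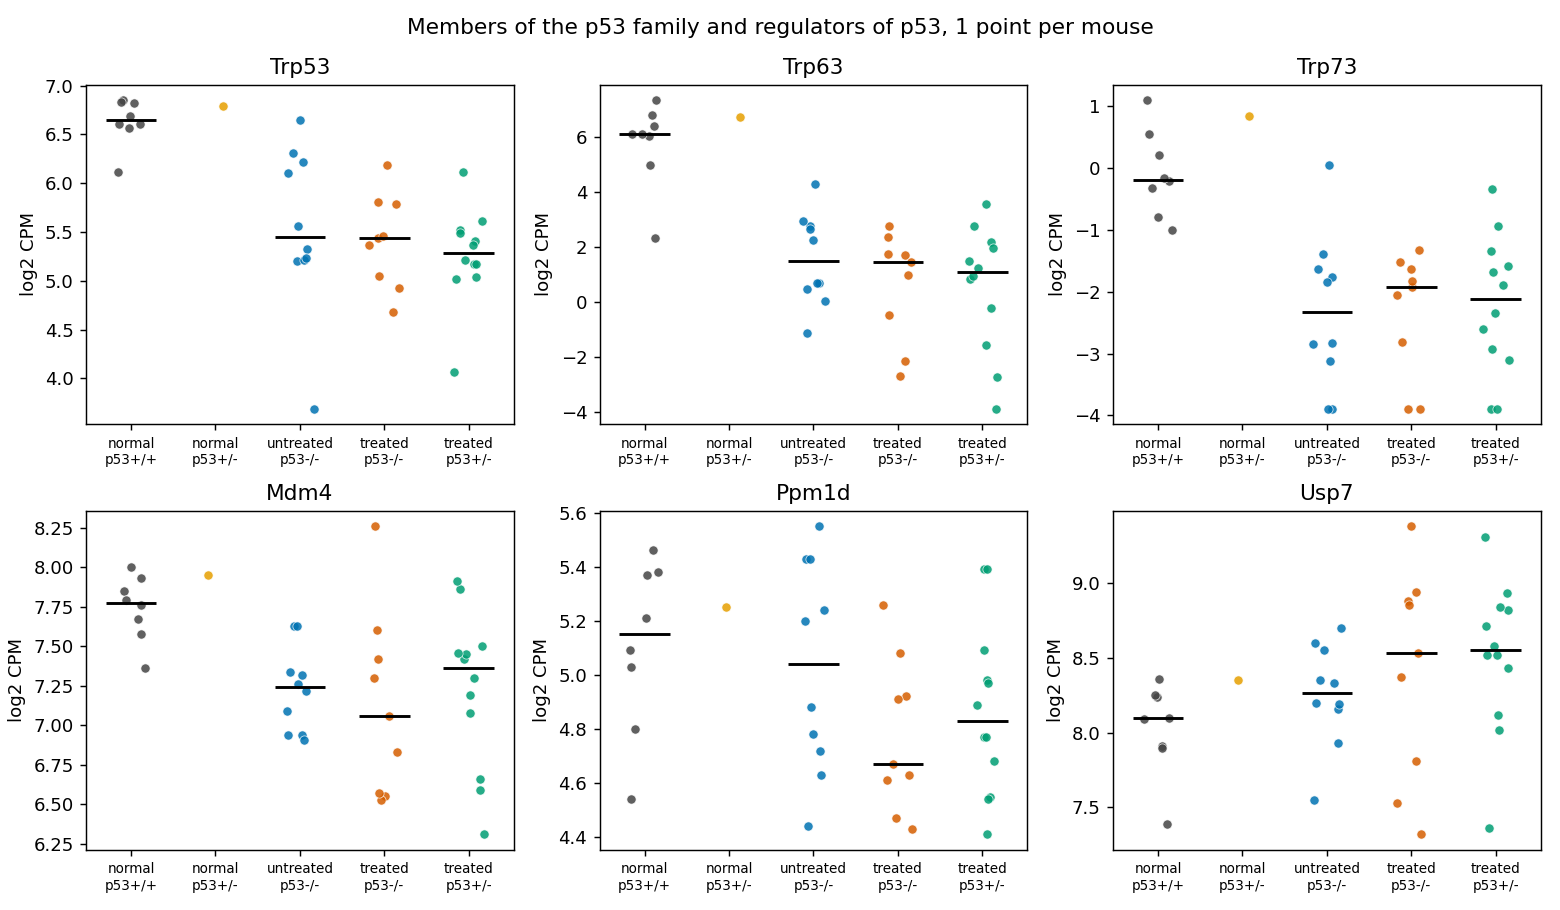
Level of each of the 6 genes in log2 CPM (prior count of 2) on the vertical axis, 1 point per mouse, by group: normal thymus p53+/+, the p53+/- thymus, untreated p53-/-, treated p53-/- and treated p53+/- lymphoma, with bars at the medians. Trp53 and Trp63 sit lower in the lymphoma groups than in normal thymus, and Usp7 is above the highest normal thymus (329 CPM) in 18 of the 31 lymphomas.

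Trp53 (ENSMUSG00000059552, GRCm38 chromosome 11, 69580359 to 69591873, plus strand, protein coding) is the gene the genotypes alter, and it is described first. In the 8 normal thymuses it lay between 69.5 CPM (mouse 387) and 115 CPM (mouse 615), with a median of 100 CPM and a mean of 101 ± 14.9 CPM (SD, n = 8). The p53+/- normal thymus had 111 CPM and thus lay inside the range of the p53+/+ thymuses. Untreated p53-/- lymphomas ran from 12.8 CPM (mouse 643) through a median of 43.6 CPM to 100 CPM (mouse 202). Their 10 mice were spread widely, with 3 of them inside the range of normal thymus. Treated p53-/- lymphomas ran from 25.6 CPM (mouse 870) through 43.4 CPM to 73 CPM (mouse 857), and treated p53+/- lymphomas from 16.7 CPM (mouse 24) through 39.2 CPM to 69.4 CPM (mouse 894). Mice with less Trp53 than every normal thymus numbered 7 of 10, 8 of 9 and 12 of 12. The 3 lymphoma groups overlapped over most of their ranges.

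Against normal thymus Trp53 was 2.11-fold lower in untreated p53-/- lymphomas (log2 fold change -1.08 ± 0.25 SE, 95% interval -1.58 to -0.57, edgeR adjusted p = 0.000747). It was 2.32-fold lower in treated p53-/- lymphomas (-1.21 ± 0.25, adjusted p = 0.0001, edgeR) and 2.5-fold lower in treated p53+/- lymphomas (-1.32 ± 0.23, adjusted p = 1.13e-05, edgeR). Without normal mouse 387 the log2 fold changes were -1.03, -1.14 and -1.25, and without the lowest lymphoma, mouse 643, the first was -0.92. Each of these 3 falls passed the test in all 39 fits that left out 1 mouse. Among mice labelled male those in the 2 treated groups did not pass (-1.01 and -1.14, edgeR adjusted p = 0.0668 and 0.0944). Trp53 transcripts were counted in every p53-/- tumour. A count over the whole gene does not show which exons or which allele the reads come from, so it is no check of the deletion.

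Trp53 shares its start with Wrap53, which encodes a protein of telomerase and Cajal body assembly and is read in the opposite direction. The gap between both annotated genes is 103 bases on GRCm38.p6, chr11:69580256-69580358, and it is shown on the plus strand. It was chosen because Trp53 was called lower in each comparison with normal thymus and Wrap53 was called in none. Capitals mark a match to the p53 decamer (bases 29 to 38, counted from the first base shown) and a CCAAT box read on the other strand (bases 96 to 100).
Trp53-Wrap53 gap: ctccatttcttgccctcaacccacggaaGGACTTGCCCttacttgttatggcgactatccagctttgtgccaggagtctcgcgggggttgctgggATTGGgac
Over 32851 windows of 300 bases around annotated starts (RefSeq, same build, both strands searched), 37.4% held CCAAT, 35.7% the GC box GGGCGG, 7.2% the E-box CACGTG and 8.4% the p53 decamer; these windows are longer than the gap shown. The windows that matched a member numbered 7, over 5 of the 6 genes. The window of Trp53 held 1 CCAAT, 1 E-box and 1 p53 decamer. Ppm1d held 1 CCAAT, 3 GC boxes and 1 p53 decamer, Usp7 held 1 CCAAT and 8 GC boxes, and the 2 windows of Mdm4 held none of these 4 motifs. Of the 2 windows of Trp73, 1 held 1 GC box and the other held none of the 4. Levels of Wrap53 were 14.2 to 32.8 CPM in normal thymus with a median of 29.8 CPM, and its medians were 30.4, 34.8 and 34.6 CPM in the lymphoma groups. Its log2 fold changes were 0.16 ± 0.17, 0.36 ± 0.16 and 0.30 ± 0.16, none of which passed the test (edgeR adjusted p = 0.48, 0.0651 and 0.109). The difference between both genes was not itself tested, and the strand setting of the counting is not given in the sources used here.

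Trp63 (ENSMUSG00000022510, chromosome 16, 25683763 to 25892102, plus strand) had the widest range among normal thymuses on the log2 scale and fell most on that scale. Normal thymuses held 4.9 CPM (mouse 387) to 161 CPM (mouse 978), with a median of 69.5 CPM. The next lowest normal thymus, mouse 624, had 31.7 CPM, and the p53+/- thymus had 107 CPM. Medians in the lymphoma groups were 3.12 CPM (0.385 in mouse 643 to 19.2 in mouse 881), 2.68 CPM (0.0837 in mouse 659 to 6.68 in mouse 490) and 2.04 CPM. In the last group the values ran from no count in mouse 24, which allows up to 0.176 CPM at 3 counts, to 11.7 CPM in mouse 25. The level was under that of mouse 387, the lowest normal thymus, for 6 of 10, 7 of 9 and 10 of 12 mice, and under that of the other 7 normal thymuses in all 31 lymphomas.

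Trp63 was 20.4-fold lower in untreated p53-/- lymphomas (log2 fold change -4.35 ± 0.80 SE, edgeR adjusted p = 4.66e-05), 26.1-fold lower in treated p53-/- lymphomas (-4.70 ± 0.83, adjusted p = 1.51e-05, edgeR) and 24.8-fold lower in treated p53+/- lymphomas (-4.63 ± 0.73, adjusted p = 2.41e-06, edgeR). Without mouse 387 the values were -4.40, -4.77 and -4.69. Without lymphoma 881, the first was -4.85. In bulk tissue, fewer cells of a type and less RNA per cell cannot be told apart.

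Markers of thymic epithelium moved with Trp63. Of 12 such genes, 8, 11 and 10 fell in the 3 comparisons, where 17.5%, 26.7% and 25.3% of all genes were called lower, and none rose, with median log2 fold changes of -3.08, -3.92 and -4.06. Their summed level was 206 to 2990 CPM in normal thymus with a median of 2190 CPM, and mouse 387 held the lowest sum, as it held the lowest Trp63. In the lymphoma groups the sums were 69.3 to 485 CPM, 37.5 to 232 CPM and 22.1 to 187 CPM, with mouse 881 at the top of the first and mouse 25 at the top of the last. Krt8, a keratin of simple epithelium, fell in all 3 comparisons (log2 fold changes -3.91, -4.08 and -4.31), as did Foxn1, the factor that directs thymic epithelial differentiation (-3.88, -4.22 and -4.44). Prss16, a protease of cortical epithelium, fell more (-8.74, -9.66 and -10.05). No marker of this list was at 0 in all mice of a group. Of the markers of other cell types, all 5 fat markers fell in each comparison (median log2 fold changes -6.93, -7.68 and -7.38), from sums of 688 to 9100 CPM in normal thymus to 37.1 to 185 CPM in the lymphomas. The p53+/- thymus, with 107 CPM of Trp63, had a fat sum of 106 CPM, and mouse 387 had the lowest Trp63 beside the highest fat sum. B lineage markers fell for 1, 7 and 7 of 7 (median log2 fold changes 0.60, -4.60 and -2.96), and these values rested on single mice. Without lymphoma 881 the first was 4 of 7 (median -2.43), while without normal thymus 387 it was 0, 4 and 0 of 7 (medians 1.58, -3.02 and -1.33), with 1 marker higher in the first comparison. Endothelium markers fell for 2, 2 and 3 of 4 (2, 1 and 2 without 387). Of 5 myeloid markers none passed in edgeR's test in any comparison, with 0 at an unadjusted p under 0.05 (medians 0.36, 0.09 and -0.05), and of 5 fibroblast markers 1, 2 and 1 fell and 1, 0 and 0 rose. Without mouse 387, 1, 1 and 2 myeloid markers (medians 0.60, 0.43 and 0.58) and 2, 2 and 3 fibroblast markers rose. The part of the content of any of these cells in the fall of Trp63 was not tested.

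**Figure D2:**
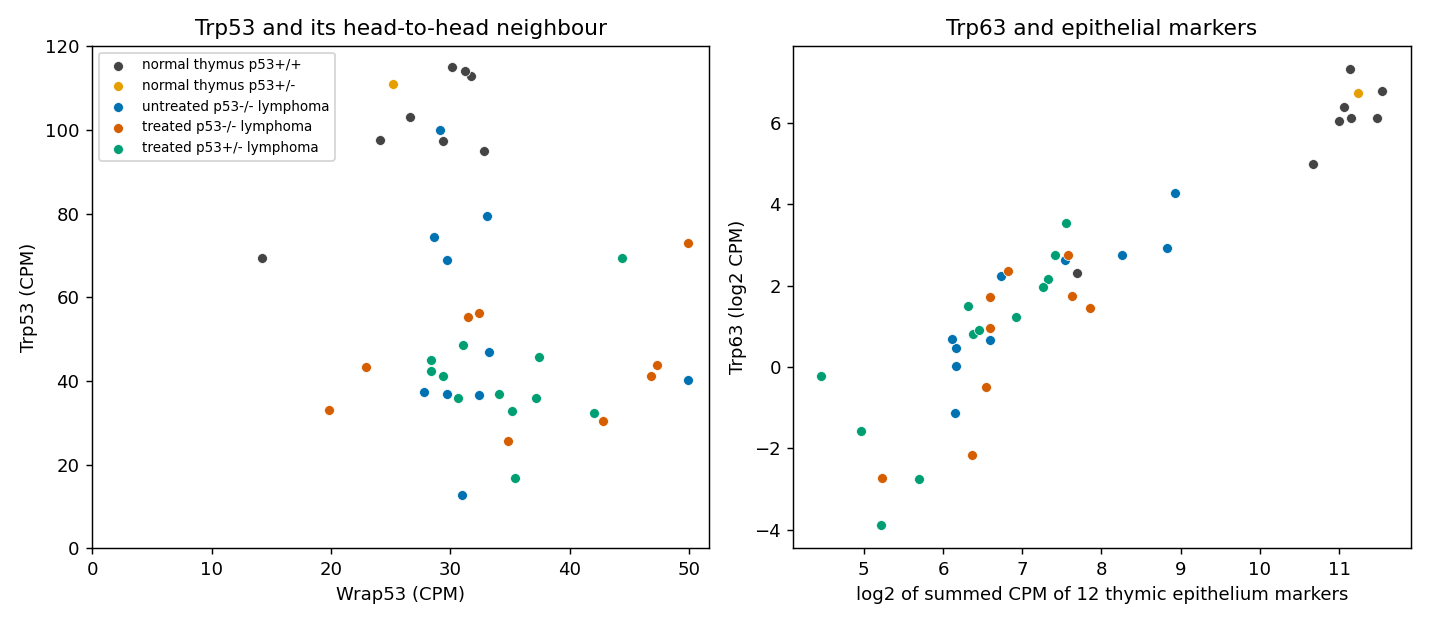
Left, Trp53 against Wrap53, both in CPM on linear axes. Right, Trp63 in log2 CPM against the log2 of the summed CPM of 12 thymic epithelium markers. Each point is a mouse, coloured by group, and on the right the normal thymuses lie at the top except mouse 387 (4.9 CPM of Trp63, 206 CPM of markers), which lies among the lymphomas.

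Trp73 (ENSMUSG00000029026, chromosome 4, 154056253 to 154140208, minus strand) was the scarcest member. Normal thymuses had 0.43 CPM (mouse 818) to 2.06 CPM (mouse 387) with a median of 0.809 CPM, and the p53+/- thymus had 1.71 CPM. Medians of the lymphoma groups were 0.142, 0.195 and 0.165 CPM, and their highest mice were at 0.966 (mouse 881), 0.329 (mouse 870) and 0.724 CPM (mouse 25). In each lymphoma group 2 mice had no count, which allows between 0.051 and 0.272 CPM at 3 counts, and 7 of 10, 5 of 9 and 6 of 12 mice had 3 counts or fewer. Lymphomas with less Trp73 than every normal thymus were 9 of 10, 9 of 9 and 10 of 12. Trp73 did not pass the low-count filter among the lymphomas alone, so it entered the tests largely through the normal thymuses. A call as higher was therefore hardly open to it, and the direction of the calls below is no independent result. Trp73 was 5.22-fold, 6.05-fold and 4.97-fold lower (log2 fold changes -2.38 ± 0.72, -2.60 ± 0.73 and -2.31 ± 0.64 SE; edgeR adjusted p = 0.00817, 0.0031 and 0.00294). Without mouse 387 the values were -2.05, -2.14 and -1.86 (edgeR adjusted p = 0.0204, 0.0141 and 0.0187). Without lymphoma 881 the first was -3.01. Mouse 387 thus held the lowest Trp63 and the highest Trp73 of the normal thymuses. Among mice labelled male (4 normal, 9 untreated p53-/-, 4 treated p53-/- and 3 treated p53+/-, beside 4, 1, 5 and 9 females), the fall of Trp73 did not pass in any comparison (-1.74, -1.84 and -0.92, edgeR adjusted p = 0.0997, 0.184 and 0.611).

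Mdm4 (ENSMUSG00000054387, chromosome 1, 132959484 to 133030561, minus strand) fell moderately, near the threshold of the test. It lay at 165 CPM (mouse 387) to 255 CPM (mouse 978) in normal thymus with a median of 219 CPM, and at 248 CPM in the p53+/- thymus. Untreated p53-/- lymphomas ran from 121 CPM (mouse 202) through 151 CPM to 198 CPM (mouse 157). Treated p53-/- lymphomas ran from 92.7 CPM (mouse 497) through 133 CPM to 307 CPM (mouse 659), the last of which lay above every normal thymus, and treated p53+/- lymphomas from 79.5 CPM (mouse 894) through 165 CPM to 241 CPM (mouse 309). The lowest normal value was not reached in 8 of 10, 6 of 9 and 6 of 12 mice.

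The fold changes of Mdm4 were 1.45-fold, 1.48-fold and 1.42-fold lower (log2 -0.53 ± 0.21, -0.57 ± 0.21 and -0.50 ± 0.20 SE; edgeR adjusted p = 0.0434, 0.0241 and 0.0352). The call depended on single animals. In the first comparison it was lost without any 1 of 20 mice (edgeR adjusted p between 0.0508 and 0.117), which were all normal thymuses but mouse 818 and the lymphomas 25, 98, 120, 202, 266, 280, 325, 328, 562, 637, 857, 881 and 899. In the second it was lost without any 1 of 5 mice (266, 387, 497, 643 and 857, edgeR adjusted p between 0.0533 and 0.0648). In the third it was lost without any 1 of 13 mice (normal 387, 787, 961, 978 and 980 and lymphomas 266, 280, 643, 857, 884, 894, 905 and 908, edgeR adjusted p between 0.05 and 0.0986). Without 387 the values were -0.47, -0.50 and -0.44 (edgeR adjusted p = 0.0897, 0.0648 and 0.0925). The direction stayed negative in all of these fits. An exact permutation test of log2 CPM per mouse, adjusted over 18 tests, gave p = 0.00151, 0.022 and 0.0191. A processed pseudogene on the other strand, Gm29257, overlaps Mdm4 and took 728 counts over all libraries, and the copy Mdm4-ps took 206.

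Ppm1d (ENSMUSG00000020525, chromosome 11, 85311244 to 85347066, plus strand) passed the test in 1 comparison. Normal thymuses had 23.2 CPM (mouse 387) to 43.9 CPM (mouse 787) with a median of 35.5 CPM, and the p53+/- thymus had 37.9 CPM. Lymphoma medians were 33.1 CPM (21.7 in mouse 643 to 46.7 in mouse 202), 25.4 CPM (21.4 in mouse 857 to 38.3 in mouse 869) and 28.4 CPM (21.2 in mouse 905 to 41.8 in mouse 862). All groups overlapped, with 1, 2 and 2 mice below every normal thymus. In treated p53-/- lymphomas Ppm1d was 1.3-fold lower (log2 -0.38 ± 0.16 SE, edgeR adjusted p = 0.0433). That call was lost without any 1 of 13 mice (normal 387, 615, 787, 818 and 961 and lymphomas 266, 280, 553, 643, 653, 659, 857 and 870), at edgeR adjusted p between 0.0631 and 0.253. Leaving out 857 moved the value most, to -0.22. The other comparisons gave -0.12 ± 0.16 and -0.29 ± 0.15 (edgeR adjusted p = 0.596 and 0.116).

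Usp7 (ENSMUSG00000022710, chromosome 16, 8689595 to 8792308, minus strand) was the member with the highest level per length and the only one whose fold changes were all positive. It lay at 168 CPM (mouse 387) to 329 CPM (mouse 787) in normal thymus with a median of 273 CPM, and at 327 CPM in the p53+/- thymus. Untreated p53-/- lymphomas ran from 188 CPM (mouse 157) through 308 CPM to 415 CPM (mouse 562). Treated p53-/- lymphomas ran from 160 CPM (mouse 869) through 369 CPM to 665 CPM (mouse 653), and treated p53+/- lymphomas from 164 CPM (mouse 266) through 375 CPM to 636 CPM (mouse 905). Mice above the highest normal value of Usp7 were 3 of 10, 6 of 9 and 9 of 12, while 1 mouse of each treated group lay below every normal thymus.

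Log2 fold changes of Usp7 were 0.26 ± 0.23 (95% interval -0.2 to 0.72), 0.40 ± 0.23 (-0.06 to 0.86) and 0.41 ± 0.22 SE (-0.03 to 0.85), none of which passed (edgeR adjusted p = 0.373, 0.135 and 0.112). Leaving out mouse 857 brought the second and the third past the threshold (0.61 and 0.55, edgeR adjusted p = 0.0258 and 0.0312). Leaving out mouse 869 did so for the second (0.50, edgeR adjusted p = 0.0498) and leaving out mouse 266 for the third (0.55, edgeR adjusted p = 0.0224). The exact permutation test passed in the third comparison (0.48 on log2 CPM, adjusted p = 0.0372) and not in the other two (adjusted p = 0.19 and 0.203).

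**Figure D3:**
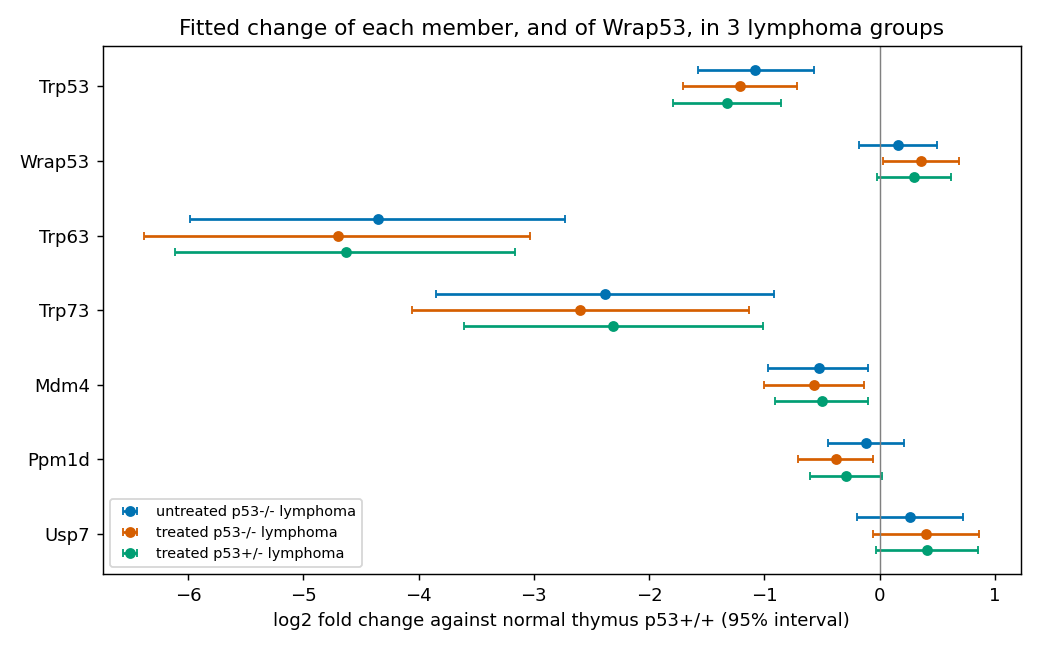
Log2 fold change of each member and of Wrap53 against normal thymus p53+/+ (horizontal axis) with its 95% interval, for the 3 lymphoma groups, from the edgeR fit. Intervals of Trp53, Trp63, Trp73 and Mdm4 lie below 0 in all 3 groups, and those of Usp7 span 0 (-0.2 to 0.72, -0.06 to 0.86 and -0.03 to 0.85).

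Per kilobase of annotated exons, the order of the median levels in normal thymus was Usp7 at 35.2 CPM per kb, Trp53 at 24.8, Mdm4 at 14.8, Ppm1d at 11.2, Trp63 at 8.29 and Trp73 at 0.146. Trp63 overlapped Ppm1d, Mdm4 and Trp53 in this order, since its normal thymuses spanned 0.583 to 19.1 CPM per kb, while Trp73 lay below all others (0.0777 to 0.373). In the lymphomas the median of Trp53 lay near those of Mdm4 and Ppm1d. The medians of these 3 genes were 10.8, 10.2 and 10.4 CPM per kb in untreated p53-/- tumours, 10.7, 9.0 and 8.01 in treated p53-/- tumours and 9.69, 11.1 and 8.96 in treated p53+/- tumours. Usp7 stood at 39.7, 47.5 and 48.2 CPM per kb, and Trp63 at 0.372, 0.32 and 0.243.

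Among the lymphomas no difference of a member was found. The 5 members tested (Trp73 was filtered out) gave 0 calls in each of the 3 comparisons and 0 at an unadjusted p under 0.05. Over all 16389 genes edgeR called 0% in each, and 11.7%, 5.27% and 6.33% had an unadjusted p under 0.05 for treated against untreated p53-/-, treated p53+/- against treated p53-/-, and treated p53+/- against untreated p53-/-. DESeq2 called 76, 12 and 3 genes over the whole table and voom 39, 1 and 1, with no member among them. In the last comparison edgeR called 21 genes without the sex covariate and 7 without the low-count filter, again with no member. For Trp53 the log2 differences were -0.11 (95% interval -0.67 to 0.46), -0.10 (-0.60 to 0.40) and -0.21 (-0.79 to 0.38), with edgeR adjusted p of 0.924, 0.988 and 0.944. Intervals for Mdm4, Ppm1d and Usp7 lay between -0.65 and 0.57, and those for Trp63 reached from -2.09 to 1.64. A change of Trp63 by 1 on the log2 scale lay inside each of its intervals.

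Since the study concerns aneuploidy, each member was set against its own chromosome. For every mouse the log2 ratio to normal thymus was taken for the other genes of that chromosome and their median was used. It reads RNA and not copies of the chromosome. Over 18 relations (6 members in 3 groups, adjusted together), Pearson's r passed in 4. Usp7 followed chromosome 16 in treated p53-/- lymphomas (r = 0.95, exact permutation p = 3.03e-05, adjusted p = 0.000273; Spearman's rho = 0.93, adjusted p = 0.00675, n = 9). Without the 2 mice farthest from the median the r was 0.93 (exact permutation, adjusted p = 0.0393). Usp7 also followed it in treated p53+/- lymphomas (r = 0.86, permutation p = 0.00076, adjusted p = 0.00456; rho = 0.71, adjusted p = 0.0775, n = 12), where r was 0.58 without 2 mice and no longer passed. The mice with the most Usp7, 653 and 905, had the highest chromosome 16 values (0.66 and 0.54). The mice with the least, 869 and 266, had the lowest (-0.39 and -0.47).

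Ppm1d followed chromosome 11 in treated p53+/- lymphomas (r = 0.91, permutation p = 3e-05, adjusted p = 0.000273; rho = 0.87, adjusted p = 0.00675, n = 12), with r = 0.8 and an adjusted p of 0.0742 (permutation) without 2 mice. Mdm4 followed chromosome 1 in the same group (r = 0.79, permutation p = 0.00233, adjusted p = 0.0105; rho = 0.6, adjusted p = 0.131, n = 12), with r = 0.55 without 2 mice (permutation, adjusted p = 0.459). There the highest Mdm4 and the highest chromosome 1 value (0.46) were in mouse 309, and the lowest of both (-0.35) in mouse 894. Without these mice r stayed positive and did not pass, also unadjusted (permutation p = 0.105, n = 10), as for Usp7 in the same group without 266 and 905 (permutation p = 0.0807, n = 10). For Ppm1d the mice left out were 862 and 894, and its unadjusted p was then 0.00825 (permutation, n = 10). Trp53 and chromosome 11 gave r = 0.64, 0.52 and 0.58 in the 3 groups, none of which passed (permutation, adjusted p = 0.0961, 0.275 and 0.0961). Without centring the ratios per mouse, 6 relations passed in place of 4, the added ones being Trp53 and Ppm1d with chromosome 11 in untreated lymphomas (r = 0.77 and 0.76, permutation, adjusted p = 0.0311 and 0.0315). Without scaling factors 5 passed, the added one being Mdm4 in treated p53-/- lymphomas (r = 0.78 in place of 0.77, exact permutation, adjusted p = 0.0364 in place of 0.0502). Taking the median change of the other genes of chromosome 11 from that of Trp53 left -1.23, -1.33 and -1.34 on the log2 scale. Trp63 and Trp73 did not pass in any group.

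**Figure D4:**
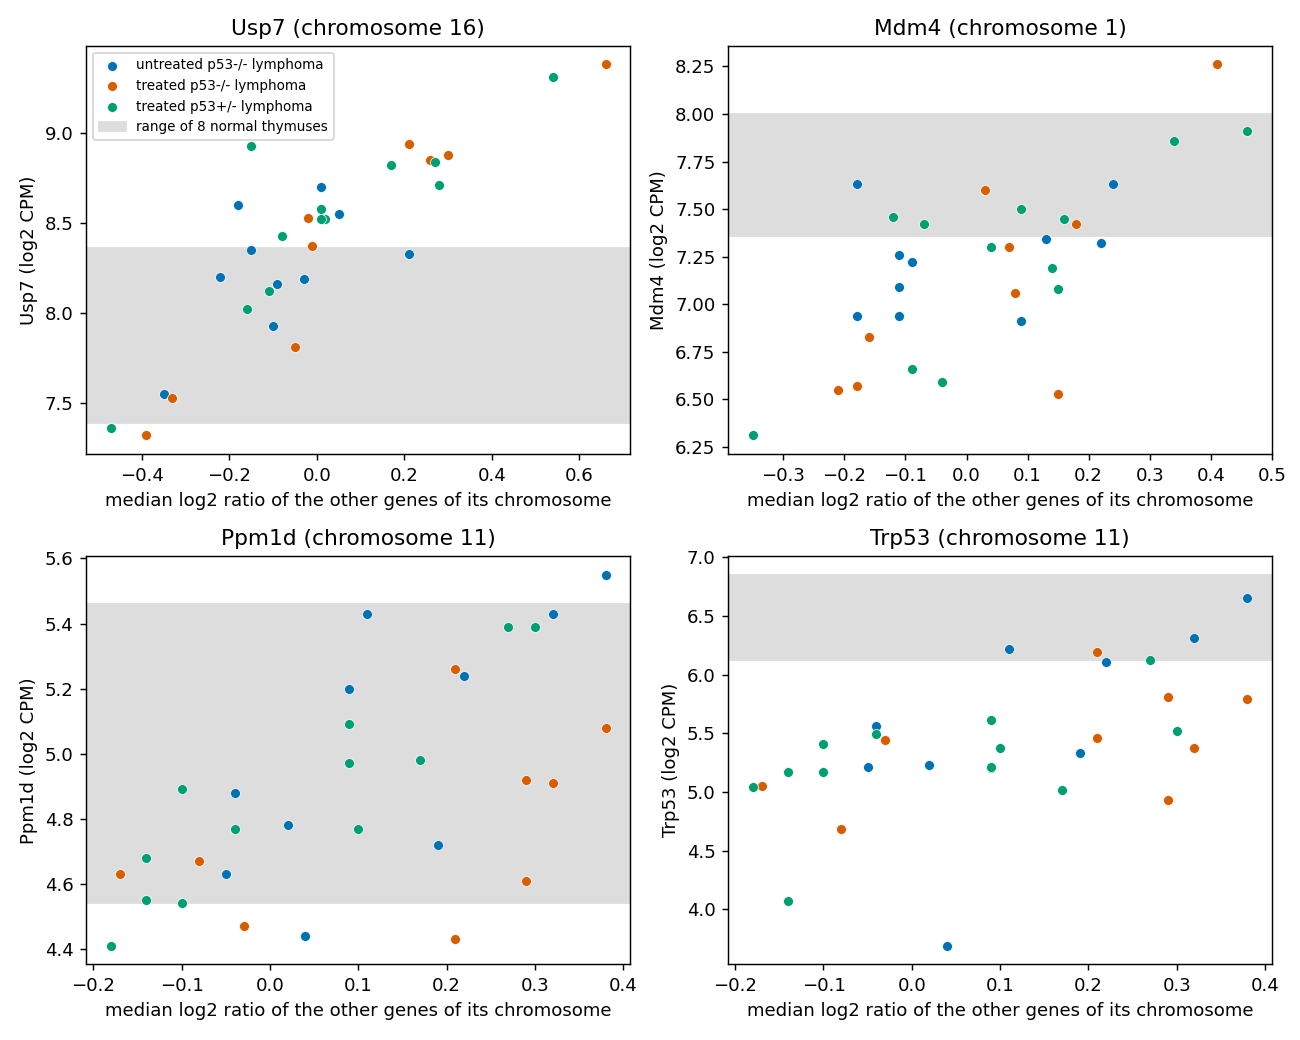
Log2 CPM of Usp7, Mdm4, Ppm1d and Trp53 (vertical axes) against the median log2 ratio to normal thymus of the other genes of the same chromosome, 1 point per lymphoma coloured by group, with the range of the 8 normal thymuses in grey. Usp7 climbs with chromosome 16 in treated p53-/- lymphomas from mouse 869 (160 CPM, chromosome value -0.39) to mouse 653 (665 CPM, 0.66).

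The genes whose levels were most like those of a regulator across the 31 lymphomas lay on its own chromosome. Likeness was Pearson's r of log2 CPM after subtraction of the group mean, among genes with a mean of at least 2 on that scale, and is a description over libraries that share depth and scaling. The 3 genes most like Usp7 were 1810013L24Rik, Dgcr2 and Usp25 (r = 0.85, 0.85 and 0.83), all on chromosome 16. Those most like Ppm1d were Pelp1, Casc3 and Rnft1 (r = 0.78, 0.78 and 0.76), all on chromosome 11, and those most like Mdm4 were Ccnt2, 2310035C23Rik and Elk4 (r = 0.77, 0.74 and 0.73), all on chromosome 1. For Trp53 they were Mettl16 and Fam57a on chromosome 11 (r = 0.78 and 0.75) and Srprb on chromosome 9 (r = 0.76). Trp63 was most like Kcnj15 on its own chromosome 16 (r = 0.91) and the keratin Krt8 on chromosome 15 (r = 0.91). Trp73 was most like H2-DMb2, Tnc and Slco2a1 (r = 0.76, 0.76 and 0.74), of which Tnc is on chromosome 4 as well. Between members the highest values were 0.64 for Ppm1d with Trp53, both on chromosome 11, and 0.63 for Trp63 with Trp73, and the lowest was -0.41 for Mdm4 with Trp53.

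The members differed in how even they were inside a tumour. In 13 multifocal tumours 4 or 5 regions were sequenced (54 libraries), and these share a tumour, so they describe it and are no replicates of a group. Trp53 varied less within a tumour (pooled SD 0.28 on the log2 scale) than between tumour means (0.54). So did Ppm1d (0.20 against 0.40), Usp7 (0.27 against 0.47) and, by a smaller margin, Mdm4 (0.27 against 0.35). Counting error for these 4 genes was 0.0305 to 0.098. For Trp63 the order was the reverse, with 2.03 within tumours and 1.27 between them, beside a counting error of 0.672. Trp73 had 0.93 and 0.70 beside a counting error of 1.16, with a median of 1 count and no count in 19 of the 54 biopsies. In mouse 881 its biopsies 1, 3, 5 and 7 had 10, 6, 5 and 34 counts (0.937, 0.311, 0.423 and 1.99 CPM), and biopsy 7 also had the highest thymic epithelium sum of the 4 (1110 CPM).

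Trp53 was nearly even in the untreated tumour of mouse 325, at 44.3 to 47.7 CPM over 4 biopsies (1.08-fold), and spread most in the treated p53+/- tumour of mouse 908, at 26.6 to 67.4 CPM (2.53-fold). Trp63 went from no count to above mouse 387, the lowest normal thymus (4.9 CPM), inside single tumours. The highest biopsies of these tumours (5.61 CPM in mouse 325, 10.1 in 869 and 13.1 in 905) stayed under the other 7 normal thymuses (31.7 to 161 CPM). In mouse 869, biopsies 1, 3, 5 and 7 had 0.0653, 10.1, 0.227 and 0 CPM. Their thymic epithelium sums were 43.9, 333, 40.1 and 42.5 CPM, so that the biopsy with the most Trp63 was also the one with the most of these markers. In mouse 905, biopsies 3, 5, 7 and 9 had 4.21, 13.1, 0 and 7.46 CPM of Trp63 and sums of 105, 277, 28.1 and 235 CPM. Mouse 202 had 6.23, 7.31, 11.7 and 0.0938 CPM with sums of 398, 513, 537 and 112 CPM. Across the 54 biopsies, after subtraction of each tumour's mean, r between Trp63 and the marker sum was 0.82 and that between Trp73 and the sum 0.75, a description over biopsies that share tumours. Trp63 had no count in 6 of the 54, which allows between 0.161 and 1.75 CPM at 3 counts, the latter in a library of low depth.

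Usp7 was most uneven in the treated p53-/- tumour of mouse 870, where biopsies 1, 3, 5 and 7 had 303, 217, 523 and 660 CPM (3.05-fold). The chromosome 16 values of these biopsies were -0.06, 0.07, 0.35 and 0.52, so that both high biopsies were also the high ones for the chromosome. Mouse 869, low in Usp7 as a whole, had 145, 222, 112 and 151 CPM with chromosome values of -0.47, -0.35, -0.39 and -0.38. Within tumours (54 biopsies, tumour means subtracted) r with the own chromosome was 0.64 for Usp7, 0.49 for Mdm4, 0.41 for Ppm1d, 0.32 for Trp53, 0.15 for Trp63 and -0.06 for Trp73, again as a description.

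**Figure D5:**
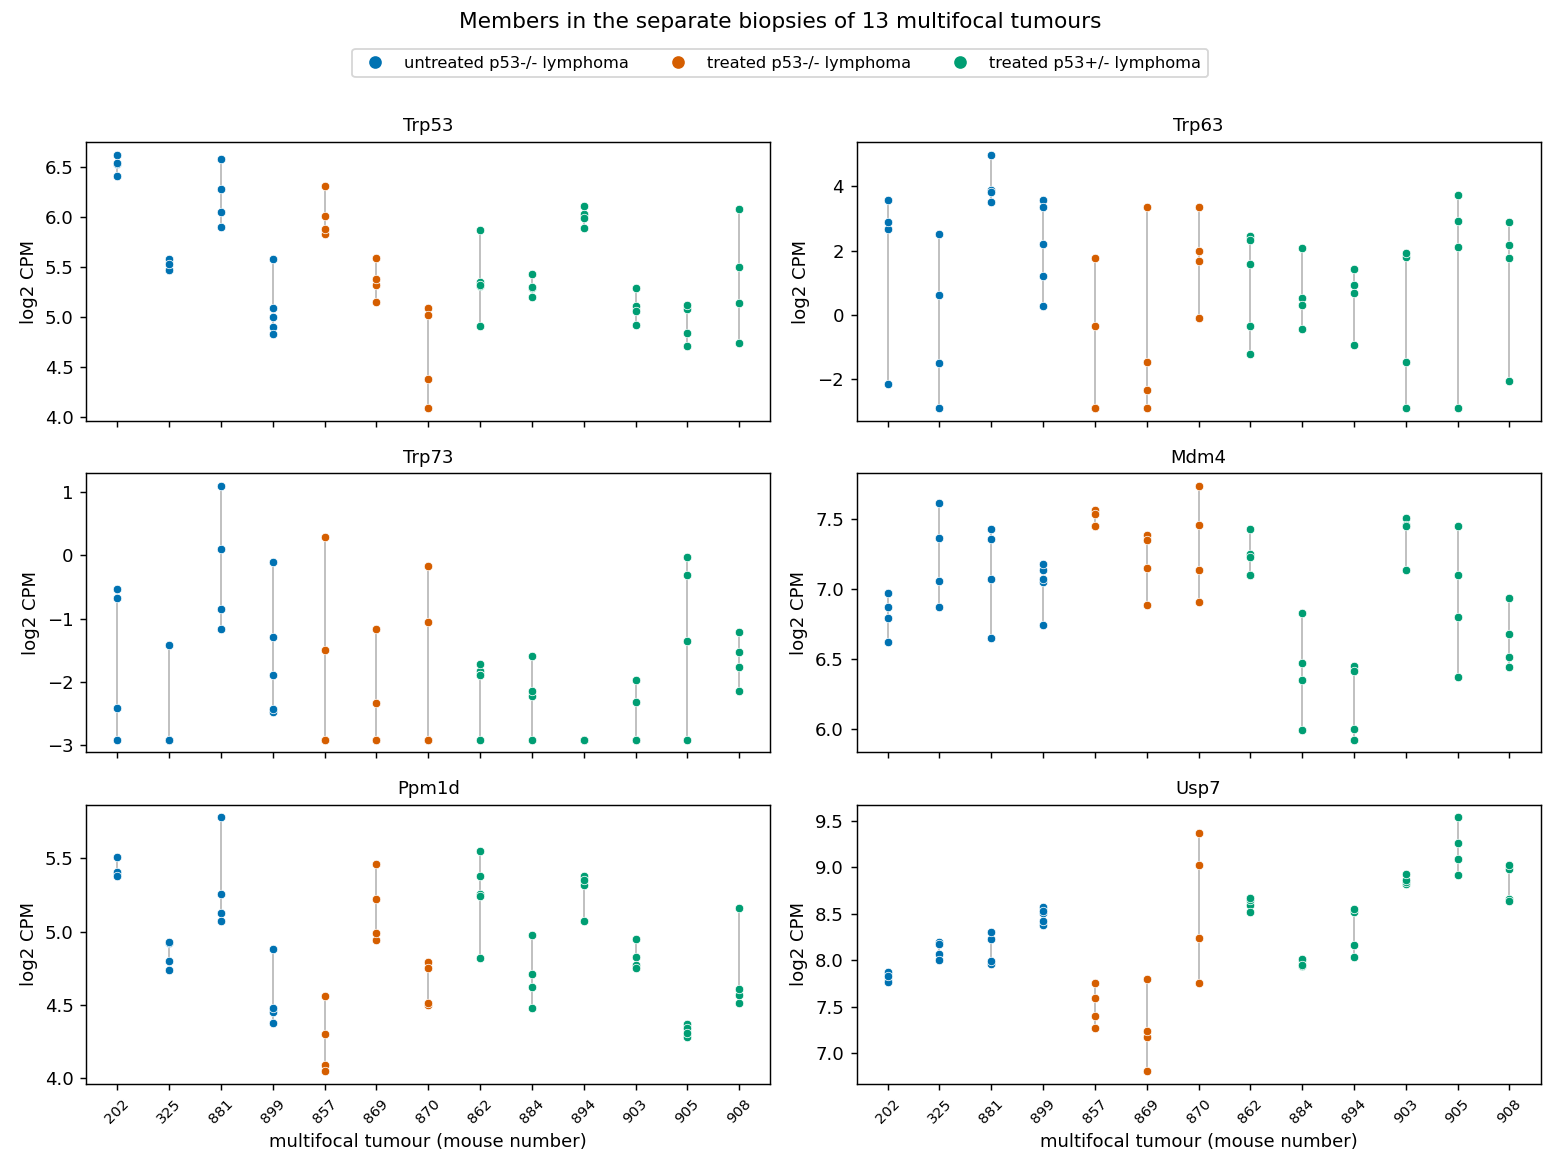
Log2 CPM of the 6 members in each biopsy of the 13 multifocal tumours, 1 column per tumour coloured by group, with a line from the lowest to the highest biopsy. Trp53 biopsies of a tumour span from 1.08-fold in mouse 325 to 2.53-fold in mouse 908. Their pooled SD is 0.28 against 0.54 between tumours, while that of Trp63 is 2.03 against 1.27. Points of Trp63 and Trp73 at the lower edge have no count.

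Other genes of the pathway were described from lists chosen with earlier results of these data in view. Of 38 further regulators of p53, 22, 24 and 19 were called. Of these 18, 18 and 15 rose and 4, 6 and 4 fell, with median log2 fold changes of 0.38, 0.37 and 0.25. The background shares called higher were 23.2%, 25.4% and 25.6%. Among mice labelled male the third count was 10 in place of 19, where 2144 of 18043 genes were called in place of 9079 of 17843. Cdkn2a, which encodes the Mdm2 inhibitor p19Arf and the kinase inhibitor p16, rose most (log2 fold changes 6.89 ± 0.53, 7.03 ± 0.51 and 6.98 ± 0.51 SE; edgeR adjusted p = 9.68e-12, 1.6e-12 and 1.21e-12). Next were Rpl5, a ribosomal protein that binds Mdm2 (2.24, 2.69 and 2.36), and the methyltransferase Smyd2 (1.96, 2.11 and 2.21). The factors Twist1 (-2.56, -2.82 and -2.78) and Bcl6 (-2.48, -2.33 and -2.47), the latter a repressor of Trp53, and Ppp1r13l, which encodes the p53 inhibitor iASPP (-1.36, -1.53 and -1.22), fell most. The fourth gene that fell was the methyltransferase Setd7 in the first comparison (-0.61) and Ppp1r13b in the third (-0.94). Mdm2, the main ubiquitin ligase of p53, was named after its values were seen and did not pass in any (0.02 ± 0.14, -0.15 ± 0.14 and 0.01 ± 0.13 SE, edgeR adjusted p = 0.919, 0.347 and 0.96).

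Of 12 known p53 targets 11 were tested, and 4, 6 and 3 fell with none higher, beside the shares called lower given above. Their median log2 fold changes were -0.65, -0.93 and -0.39. Without lymphoma 266, 1 target rose in the third comparison and its median was -0.24, and 5 targets fell in the second. Without normal mouse 387, 4 fell in the second in place of 6. Without lymphoma 881 or without lymphoma 98, 3 fell in the first in place of 4. Phlda3, an inhibitor of Akt, fell by 3.23, 3.05 and 3.02 on the log2 scale (edgeR adjusted p = 1.34e-07, 1.84e-07 and 3.15e-08). Cdkn1a, the cell cycle inhibitor p21, fell by 1.75, 1.96 and 1.30, and Ccng1 (cyclin G1) fell by 1.11, 1.17 and 1.21. Bbc3, the apoptosis factor Puma, fell in both p53-/- groups (-1.45 and -2.39). The 3 that fell in treated p53+/- tumours were Phlda3, Cdkn1a and Ccng1, and no target passed edgeR's test in a comparison among lymphoma groups. At an unadjusted p under 0.05 there were 2 of 11 for treated p53+/- against treated p53-/- lymphomas, beside 5.27% of all genes, and 0 in the other two.

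Beside the shares of all genes called higher (23.2%, 25.4% and 25.6% in the 3 comparisons), in the E2F family, transcription factors of S phase entry, 5 of 8 rose and none fell in untreated p53-/- lymphomas (E2f1, E2f3, E2f4, E2f6 and E2f8). In treated p53-/- lymphomas 4 rose (E2f1, E2f3, E2f6 and E2f7) and E2f5 fell, and in treated p53+/- lymphomas 5 rose (E2f1, E2f3, E2f6, E2f7 and E2f8) and E2f5 fell. Without normal mouse 387 no gene of the family fell in either treated group. Without lymphoma 881, 1 fell in untreated lymphomas, and without lymphoma 266, 6 rose and none fell in treated p53+/- lymphomas. E2f3 rose by 1.56, 1.57 and 1.54 on the log2 scale. Of 7 markers of cycling cells 6 rose in each comparison, beside the same shares, with median log2 fold changes of 1.21, 1.43 and 1.48. The part of the share of cycling cells in the levels of the members was not tested.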

How the data were processed

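Gene expression was measured in 81 RNA sequencing libraries from snap-frozen thymic tissue of 40 mice. The authors deposited expected counts per gene (RSEM estimates, which share ambiguous reads between genes), not scaled between libraries. Per the submitters' processing notes the tools were CASAVA 1.8, fastp, STAR 2.7.2b and RSEM 1.1.17 with build mm10; their settings and strandedness are not given in the sources used here. Coordinates came from the GRCm38 annotation (99.63% of the IDs matched).

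Expected counts were rounded and summed per mouse. edgeR 4.0.16 (R 4.3.3) was used with TMM factors, filterByExpr by group, robust quasi-likelihood fitting, with the labelled sex as a covariate. One fit held the 8 p53+/+ normal thymuses and the 3 lymphoma groups (17843 genes), another the lymphomas alone (16389 genes). Genes with a Benjamini-Hochberg adjusted p under 0.05 over all genes were called, and "fell" or "rose" is used of these. Log2 CPM used a prior count of 2. The p53+/- normal thymus entered only an alternative fit. The code was tested on simulated data. Limits for a count of 0 were set at 3 counts and cover counting error only, since reads without molecular identifiers are not independent molecules.

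The chromosome measure was the median, over autosomal genes averaging 1 CPM or more, of log2 ratios to normal thymus centred per mouse. Its relations used permutation tests, exact for the group of 9 mice and with 100000 resamples otherwise. Alternatives included DESeq2 1.42.0, limma 3.58.1 (voom over biopsies), other scalings, filters, sex covariates and sets of mice. Counts of listed genes without mouse 387, 881, 266 or 98 were added after seeing the data. Members and lists were chosen with earlier results of these data known. Named genes were all members, genes overlapping them, the 3 largest rises and falls per list among called genes, and the 3 genes most like each member (1 of them is not reported here); other names were chosen after their values were seen. Mice are separate animals by their labels.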

Additional observations from a re-analysis of the deposited data

Results flagged for a closer look

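Of 18 groups of members' values that held 4 to 10 mice, 3 had a mouse far from the others by Dixon's test at its 95% level, where chance gives about 1 in 20. Normal mouse 387 had Trp53 at 6.12 log2 CPM (69.5 CPM), with a gap to the next mouse of 0.62 of the whole range (critical value 0.526). The same mouse had Trp63 at 2.31 log2 CPM (4.9 CPM), with a gap of 0.53 of the range. Its T lineage sum was the lowest and its B lineage, fat, myeloid (1870 CPM), fibroblast (2660 CPM) and endothelium (523 CPM) sums were the highest of the normal thymuses. Untreated p53-/- lymphoma 643 had Trp53 at 3.69 log2 CPM (12.8 CPM), with a gap of 0.51 of the range (critical value 0.466). That mouse also had the lowest Trp63 (0.385 CPM) and the lowest Ppm1d (21.7 CPM) of its group, and Mdm4 at 197 CPM. Its TMM factor of 0.632 was the lowest of the 40 mice (next 0.848).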

How the results depend on the processing

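The falls of Trp53, Trp63 and Trp73 against normal thymus kept their direction in every setting run and their call in all 39 fits that left out 1 mouse. Of the other settings, only the restriction to mice labelled male lost a call of Trp53 (treated groups, log2 fold change -1.01 and -1.14, edgeR adjusted p = 0.0668 and 0.0944) or Trp73, while the untreated comparison of Trp53 gave an adjusted p of 0.0477 (edgeR) there. Trp73 gave no value in treated p53-/- lymphomas with only the 2 groups in the fit, where it did not pass the filter. Its direction was close to fixed by the filter, so keeping it in the other settings is no separate support. Leaving out 1 mouse, the number of members called was 3 to 4, 3 to 6 and 3 to 4 in the 3 comparisons with normal thymus and 0 in the others. Among males it was 2, 2 and 1, where 4508, 4773 and 2144 of all 18043 genes were called. For treated p53-/- lymphomas it was 3 with only the 2 groups in the fit, and 3 with the low-count filter set by the design or without normal mice 387 and 624, both chosen after seeing the data. Mdm4 was called in 11, 13 and 11 of 17 other settings and Ppm1d in treated p53-/- lymphomas in 7 of 17. Usp7 was called in 0, 2 and 3 of 17. The cause was not tested. Without scaling factors the median log2 fold change of all genes in untreated lymphomas was -0.05 in place of 0.08, and 46.6% of called genes were higher in place of 56.9%. Regulators called were 18 to 23, 19 to 27 and 10 to 24 over these settings, with 10 among males. Without the 2 farthest mice, the relations to the own chromosome that passed went from 4 to 1 (without centring 6 and without scaling 5), and 4 that had not passed changed sign (Trp63 to 0.19 and -0.14 in the treated groups, Trp73 to 0.08 and Mdm4 to -0.1 in untreated lymphomas).

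Members uncalled among lymphomas changed sign in some settings, none of which called them (adjusted p of at least 0.733). For treated against untreated p53-/- lymphomas, single-biopsy tumours gave 0.03 for Trp53 and 0.9 for Trp63, no scaling gave 0.03 for Mdm4, and Usp7 was -0.15 in males, -0.03 with 2 groups and -0.01 with voom. For treated p53+/- against treated p53-/-, Trp63 was -0.02 without scaling, -0.81 in single-biopsy tumours and -0.09 in the permutation test, Ppm1d was -0.01 in males, and Usp7 was 0.02 without a filter, 0.03 without sex, 0.4 in males, 0.0 without libraries under 5 M, 0.14 with voom and 0.11 in the permutation test. For treated p53+/- against untreated p53-/-, Trp63 was 0.09 in single-biopsy tumours, 0.34 in males, 0.28 with 2 groups and 0.48 with voom. Mdm4, at 0.0, was 0.01 with DESeq2 size factors, without a filter and with DESeq2, 0.03 without scaling or without sex, 0.17 in single-biopsy tumours, 0.18 in males, 0.09 with 2 groups and 0.0 with the filter set by the design. Usp7 was -0.07 with sex from expression, -0.04 without the 3 mice whose sex genes go against the label and -0.14 in single-biopsy tumours. Leaving out 1 mouse, the values in these 3 comparisons ran from -0.22 to 0.01, -0.2 to 0.0 and -0.28 to -0.09 for Trp53, from -0.57 to 0.25, -0.33 to 0.54 and -0.74 to 0.29 for Trp63, from -0.21 to 0.03, -0.05 to 0.29 and -0.18 to 0.1 for Mdm4, and from 0.0 to 0.2, -0.12 to 0.13 and -0.04 to 0.14 for Usp7. No paired analysis was possible because the groups hold different mice and the replicate numbers follow accession order only. Depth limits Trp73, with 3 counts or fewer in 18 of 31 lymphomas.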
